A study of Mus musculus with 3 samples.

Results

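A set of 9 mouse genes, mostly of 2 families of barrier proteins, was followed through single cells of the developing urogenital sinus and prostate. Upk1a, Upk3b and Upk3bl encode uroplakins or a uroplakin-like protein. Ivl, Sprr1a, Sprr2f and Lor encode precursors of the cornified envelope, and Asprv1 and Dapl1 are further genes of differentiating squamous epithelium. They are 9 of the 9781 gene rows used here. They were selected on their measured levels in these same cells, with UMI rates of the epithelial classes in view, so their levels are a description and no test is attached to them.

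The series holds 3 single-cell libraries, 1 for each group: the male urogenital sinus (UGS) at embryonic day E18.5, and the prostate at postnatal days P14 and P35. The labels class all 3 as normal and give no genotype or number of animals. The study's methods describe mice of mixed strain background and an Osr1-Cre driven reporter for lineage tracing, and the sources do not tie either to a given library. Cells lie in 1 table under barcodes that end in 1, 2 or 3, and no label ties an ending to an age, so they are called barcode sets 1, 2 and 3 and no difference between them is read as a difference between ages. With 1 library per set no p-value exists, and every 95% interval below is exact and covers counting error only.

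Uroplakins are membrane proteins that pack into rigid plaques on the luminal face of urothelial umbrella cells. Upk1a encodes a tetraspanin of these plaques, and Upk3b encodes a member of the uroplakin 3 family that mesothelium also makes. The cornified envelope is the protein shell that replaces the plasma membrane of a terminally differentiated keratinocyte. Transglutaminases build it by cross-linking involucrin (Ivl), small proline-rich proteins (Sprr genes) and loricrin (Lor), whose genes lie together in the epidermal differentiation complex. Asprv1 encodes an aspartic protease of the upper epidermis, and Dapl1 encodes a small protein of stratifying epithelia.

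In GRCm38.p6, Upk1a lies on chr7:30603092-30612734, Asprv1 on chr6:86628174-86629710 and Dapl1 on chr2:59484653-59505020. Upk3b, at chr5:136038496-136044993, and Upk3bl, at chr5:136057259-136076695, are neighbours 12265 bases apart. The 4 envelope precursors share chromosome 3: Lor at 92080271 to 92083142, Sprr2f at 92365187 to 92366442, Sprr1a at 92483954 to 92485881 and Ivl at 92570899 to 92573790. The sequences below are the 250 bases before the start given in the RefSeq promoter table for the member with most uroplakin UMIs and for the 4 precursors, which show where their promoters share letters. Capitals mark TATAAA (the TATA box) and TGANTCA (the AP-1 element), searched on both strands. For Ivl that start, at 92573735, lies inside the gene span above, so that 55 bases of its window belong to the span, and for the others printed the window ends where the span begins.
Upk1a, chr7:30612735-30612984, minus strand: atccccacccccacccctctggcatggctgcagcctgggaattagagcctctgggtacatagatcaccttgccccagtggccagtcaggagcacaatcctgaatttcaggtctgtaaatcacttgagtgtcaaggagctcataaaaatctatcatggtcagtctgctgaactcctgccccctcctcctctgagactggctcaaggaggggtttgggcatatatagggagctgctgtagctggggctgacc
Ivl, chr3:92573736-92573985, minus strand: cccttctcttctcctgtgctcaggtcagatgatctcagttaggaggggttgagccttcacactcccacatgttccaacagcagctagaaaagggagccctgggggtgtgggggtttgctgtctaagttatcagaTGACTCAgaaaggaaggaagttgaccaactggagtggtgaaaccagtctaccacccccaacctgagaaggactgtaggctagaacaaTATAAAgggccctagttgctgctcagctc
Sprr1a, chr3:92485882-92486131, minus strand: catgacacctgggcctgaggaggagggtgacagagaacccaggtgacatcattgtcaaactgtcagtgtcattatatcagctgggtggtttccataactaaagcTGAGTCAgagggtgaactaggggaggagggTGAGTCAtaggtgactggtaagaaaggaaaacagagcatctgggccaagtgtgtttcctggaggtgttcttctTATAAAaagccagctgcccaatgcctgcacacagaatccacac
Sprr2f, chr3:92364937-92365186, plus strand: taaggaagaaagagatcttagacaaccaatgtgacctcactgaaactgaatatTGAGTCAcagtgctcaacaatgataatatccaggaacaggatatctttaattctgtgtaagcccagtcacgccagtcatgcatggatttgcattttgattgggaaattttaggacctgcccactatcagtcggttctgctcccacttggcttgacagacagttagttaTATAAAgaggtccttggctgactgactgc
Lor, chr3:92083143-92083392, minus strand: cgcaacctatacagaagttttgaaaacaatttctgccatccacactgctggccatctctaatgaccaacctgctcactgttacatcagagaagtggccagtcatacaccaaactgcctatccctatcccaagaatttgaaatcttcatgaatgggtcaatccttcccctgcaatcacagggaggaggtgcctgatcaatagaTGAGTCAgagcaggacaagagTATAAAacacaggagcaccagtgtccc
TATAAA stood in the windows of 5 of the 9 genes (the 4 precursors and Dapl1) and in 12.4% of 32851 RefSeq windows of the same length. TGANTCA stood in 4 of the 9, all of them precursors, against 6.75% of windows. Sprr1a held 2 copies, at 146 to 140 and 116 to 110 bases before the start, and 2 or more copies stood in 0.338% of windows. The AACCGGTT element bound by Grainyhead-like factors was in none of the 9 windows and in 0.116% of all windows. These matches are letters in a window and do not show that a factor binds there.

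After cells with fewer than 200 genes were left out, 766, 5350 and 8360 cells remained in sets 1, 2 and 3, with a median of 19357, 1738 and 1788 UMIs (unique molecular identifiers, each counting 1 captured RNA molecule). Clusters were named from marker lists that hold no member, and 162, 1588 and 2973 cells were epithelium-like, with a median of 41420, 4072 and 3722 UMIs. Set 1 was thus far deeper, so some shares are also given after cells were thinned to 900 UMIs. These are the shares of both families, of Upk1a and Sprr1a and of several pairs, and the other shares are not thinned. They move with depth: of the 162 set 1 cells, thinning left 38 with Upk3bl, 10 with Upk3b, 14 with Ivl, 16 with Lor, 41 with Asprv1 and 8 with Dapl1. Of the epithelium-like cells, 30, 29 and 66 belonged to cluster 11, which carried 12 of 12 epithelium markers but had the leukocyte marker Cd52 and no epithelium marker among its 10 leading genes. It is called by its number here. The leading genes of cluster 4 (27, 699 and 813 cells) included the muscle genes Myod1, Msc and Myf5 beside the epithelial Sprr2a3, Lamb3 and Sfn. Of its 27 set 1 cells 13 held Myod1, with 386 UMIs or 327 CPM, and 14 of the 27 fell into a cluster of 15 cells led by Myog and Myod1 when set 1 was clustered alone. A caller of doublets marked 3, 0 and 0 cells, too few to count as a working search. Sets 2 and 3 shared 13 barcodes, sets 1 and 2 shared 1, and sets 1 and 3 shared 0.

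Rates are given per set as UMIs per 1000000 UMIs of all genes (CPM). Because 3′ UMIs depend on the gene, rates are compared between cells. The order of genes by rate serves only to pick which genes of a list are named. The uroplakins were summed first. In sets 1, 2 and 3 their rate in epithelium-like cells was 1171.5 (95% interval 1147.8 to 1195.6), 19.7 (16.9 to 22.9) and 46.2 (43.1 to 49.4). At least 1 uroplakin UMI was found in 85.8% (79.5 to 90.8), 7.43% (6.19 to 8.83) and 10.5% (9.45 to 11.7) of the cells, and in 43.2%, 1.08% and 2.45% after thinning. In fibroblast-like cells, which should lack uroplakins, the shares were 4.42%, 0.390% and 0.113%, at median depths of 15662, 1288.5 and 1335 UMIs.

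Upk1a gave most of these UMIs. Its rate was 724, 16.4 and 42.4 CPM in sets 1, 2 and 3, from 5743, 148 and 761 UMIs. A UMI was seen in 66.0%, 5.79% and 9.79% of epithelium-like cells and in 3.12%, 0.334% and 0.0750% of fibroblast-like cells, and after thinning in 26.5%, 1.01% and 2.18% of the epithelium-like cells. The highest single cell held 599 UMIs in set 1, 9 UMIs in set 2 and 59 UMIs in set 3. On the log2 scale the epithelium-like rate lay 8.29 (7.77 to 8.87), 3.24 (2.39 to 4.23) and 5.65 (4.66 to 6.86) above that of all other cells.

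Upk3b was high in set 1 and nearly absent elsewhere. Set 1 held 621 UMIs in 51 epithelium-like cells (78.3 CPM) and set 3 held 24 UMIs in 11 cells (1.34 CPM). Set 2 held 0 UMIs in 1588 cells, which allows a share of cells with a UMI of up to 0.189% (3 counts of the total). The log2 ratio to other cells was 7.36 (6.23 to 8.81) in set 1, and in set 3, where other cells held 0 UMIs, the rate was at least 4.21-fold higher, with 3 UMIs taken as the floor of the summed count (log2 2.07, 0.36 to 4.45). Upk3bl, its neighbour, gave 370 CPM in set 1 against 3.33 in set 2 and 2.40 in set 3, and was found in 80.2%, 1.83% and 0.942% of epithelium-like cells (1.04%, 0.0557% and 0.0375% of fibroblast-like cells). Its log2 ratio to other cells was 8.60 (7.79 to 9.55), 3.52 (1.54 to 6.63) and 3.50 (1.56 to 6.59), the last pair resting on 2 UMIs in the other cells. How reads were divided between the 2 related uroplakin 3 genes is not given in the sources used here.

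The 4 cornified envelope precursors together reached 4465.1 (4418.7 to 4511.8), 624 (608 to 641) and 952 (938 to 967) CPM in epithelium-like cells, with a UMI in 95.1%, 62.0% and 57.2% of them and in 31.7%, 3.29% and 1.35% of fibroblast-like cells. After thinning the epithelium-like shares were 78.4%, 31.5% and 35.6%. Sprr1a held most of these UMIs in every set. Its rate was 4172.2, 536 and 853 CPM, and it was found in 88.3%, 56.9% and 53.5% of epithelium-like cells, or 75.3%, 28.3% and 33.1% after thinning. The log2 ratio to other cells was 6.86 (6.72 to 6.99), 4.45 (4.23 to 4.68) and 4.49 (4.34 to 4.64). Sprr1a UMIs also appeared in other classes at unequal shares: fibroblast-like 12.7%, 1.90% and 0.787%, endothelium-like 18.4%, 13.5% and 12.7%, and leukocyte-like 10.5%, 20% and 6.78%. The median depths of the endothelium-like cells were 20338, 3261.5 and 3094 UMIs and those of the leukocyte-like cells 10313, 2027 and 2003 UMIs. The part that free RNA or doublets have in these shares was not tested.

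Ivl, the envelope scaffold, stood at 164 (155 to 173), 10.3 (8.32 to 12.6) and 23.2 (21.1 to 25.6) CPM in epithelium-like cells. It was found in 50.6%, 3.71% and 3.599% of them, and in 1.04%, 0.111% and 0% of fibroblast-like cells. Thus in sets 2 and 3 a few cells carried it, up to 10 and 44 UMIs in a cell. Its log2 ratio to other cells was 8.2 (7.15 to 9.52), 4.16 (2.75 to 6.06) and 7.78 (5.29 to 13.09), the last against 1 UMI.

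Sprr2f followed another order. Set 1 held 3 UMIs in all (0.378 CPM), whereas sets 2 and 3 held 445 and 1110 UMIs in epithelium-like cells (49.3 and 61.9 CPM). These UMIs sat in only 35 and 88 cells, 2.20% and 2.96% of the class, with up to 81 and 103 UMIs in a cell, and a UMI was found in 0.167% and 0.0375% of fibroblast-like cells. The log2 ratio to other cells was 6.83 (5.27 to 9.11) and 7.19 (5.83 to 9.07). The Sprr2 genes are close copies of one another and how reads were assigned among them is not given in the sources used here, so the split of UMIs between Sprr2f and Sprr2a3 is uncertain.

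Lor had the lowest ratio to other cells of the 8 members with enough UMIs in set 1. Its rate was 129 (121 to 137), 28.6 (25.2 to 32.3) and 14.6 (12.8 to 16.4) CPM, with a UMI in 71.6%, 13.3% and 7.27% of epithelium-like cells. Endothelium-like cells held it in 18.4%, 14.6% and 6.60%, the last pair close to the epithelium-like shares, and fibroblast-like cells in 22.6%, 1.39% and 0.525%. The log2 ratio to all other cells was 2.92 (2.71 to 3.14), 1.15 (0.80 to 1.52) and 1.35 (0.92 to 1.80). In sets 2 and 3 the direction turned when only cells with 1000 or more genes were clustered (-0.24 and -0.48), so no direction is given there.

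Asprv1 UMIs lay mostly in set 1. The rate there was 516 (500 to 532) CPM, from 4095 UMIs in 95 of 162 epithelium-like cells, and the log2 ratio to other cells was 5.77 (5.51 to 6.04). The other cells of set 1 included 63 UMIs in 3 of 38 leukocyte-like cells, with 43 in the highest. Sets 2 and 3 held 13 and 7 UMIs in epithelium-like cells, and in set 2 the ratio was -0.14 (-1.42 to 1.16). Dapl1 was present in all sets, at 74.1 (68.2 to 80.3), 18.3 (15.6 to 21.3) and 34.9 (32.3 to 37.8) CPM, in 54.3%, 8.44% and 11.8% of epithelium-like cells against 3.90%, 0.279% and 0.225% of fibroblast-like cells. Its log2 ratio to other cells was 4.14 (3.73 to 4.57), 2.98 (2.24 to 3.82) and 3.37 (2.85 to 3.93).

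**Figure D1:**
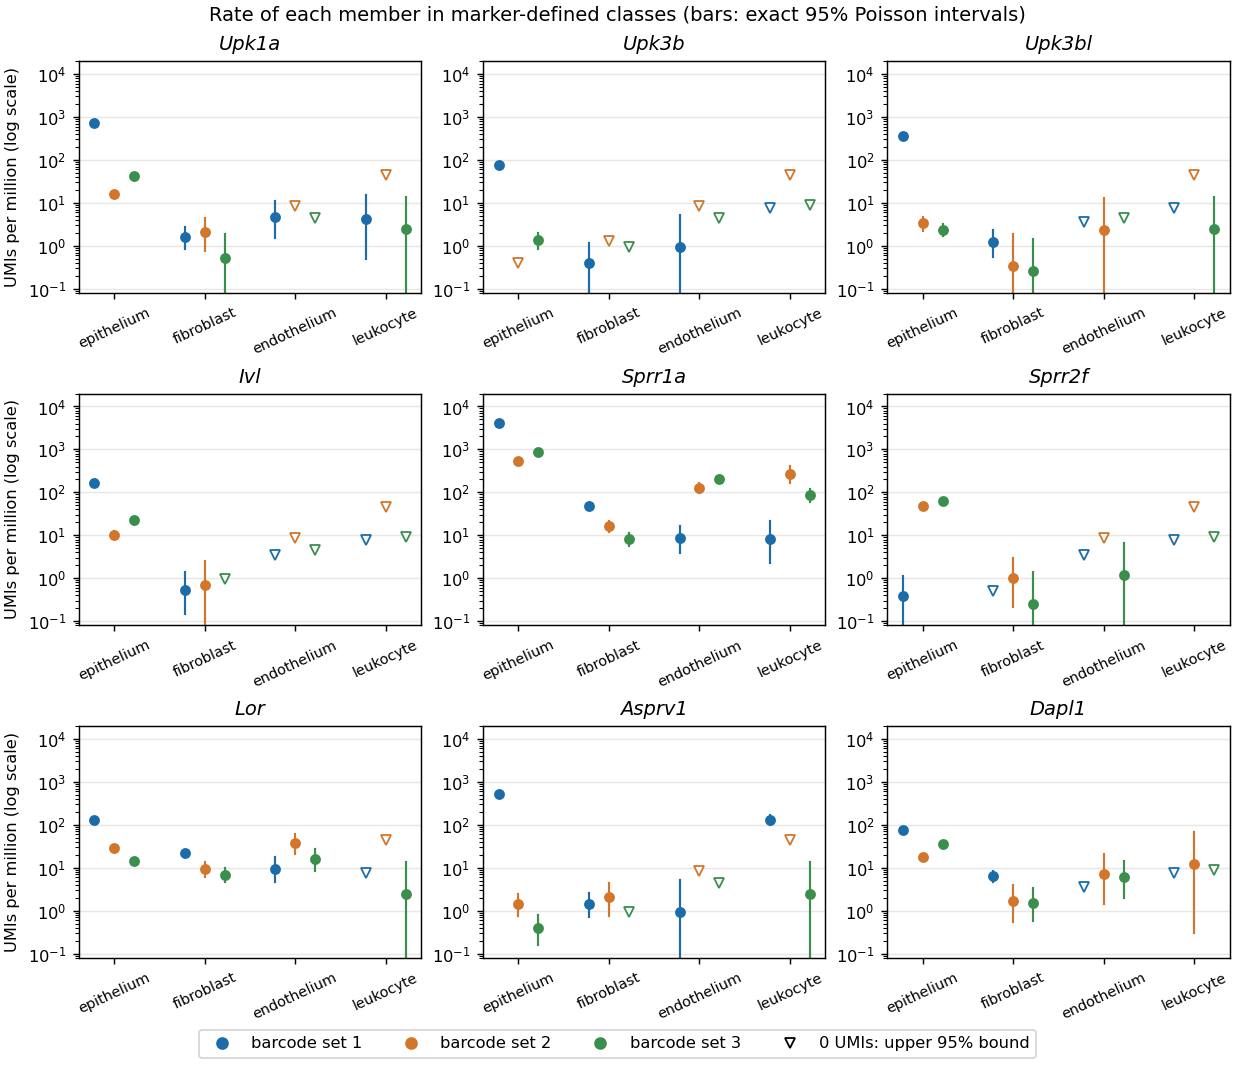
Rate of each of the 9 genes (CPM, log axis) in epithelium-like, fibroblast-like, endothelium-like and leukocyte-like cells, with 1 colour per barcode set, bars for exact 95% Poisson intervals and open triangles for the upper bound where 0 UMIs were seen. The epithelium-like rate of Upk1a reached 724 in set 1 against 16.4 and 42.4 in sets 2 and 3, whereas Sprr2f was higher in sets 2 and 3 than in set 1.

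In number, 8 of 8, 6 of 8 and 7 of 8 members with at least 10 UMIs were 4-fold or more higher in epithelium-like than in other cells in sets 1, 2 and 3. The members that missed this were Lor and Asprv1 in set 2 and Lor in set 3. Over all gene rows 6.38%, 4.91% and 5.36% passed the same fold, while 15.4%, 12.1% and 17.5% were as much lower, which no member was, and the median log2 ratio was -0.26, -0.16 and -0.10. The genes were picked partly for this contrast, so nothing is read from the count. When only cells with 1000 or more genes were clustered, 2 members each passed in sets 2 and 3, and 4 and 5 passed when such cells kept the classes of the full clustering. The share of all rows past the fold was not counted for these 2 settings, so nothing is read from these counts either.

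The other genes of these pathways were covered in part. None of 3 other uroplakins (Upk1b, Upk2, Upk3a) had a row. Of 54 other genes of the epidermal differentiation complex, 17 had a row, and 9 of 15, 5 of 10 and 3 of 9 with enough UMIs were 4-fold or more higher in epithelium-like cells (median log2 2.91, 1.58 and 0.70). Of 18 cross-linking enzymes and plaque proteins, 6 had a row, and 4 of 5, 4 of 5 and 4 of 6 were higher (5.46, 3.30 and 2.89). For 3 lists the 3 highest rates in epithelium-like cells were of the same genes in sets 1, 2 and 3. They were S100a6 (4119.5, 1965.8 and 1172.4 CPM), S100a11 and S100a10, with S100a10 first in set 3. The next were Perp, a desmosomal membrane protein (666, 593 and 508 CPM), Pkp3 and Pkp1. The last were Sfn, the 14-3-3 protein of stratified epithelia (1827.4, 2716.9 and 2740.1 CPM), Lypd3 and Lgals7. Of the regulators, Cebpb and Klf4 were among the 3 highest in every set, with Elf3 above Klf4 in set 1. Cebpb and Klf4 were not higher in epithelium-like cells than in the others (log2 ratio -0.43, -0.23 and -0.92 for Cebpb, -0.47, -0.04 and -0.39 for Klf4). Tgm2, a broadly expressed transglutaminase, went the other way, with a log2 ratio of -4.03, -2.07 and -1.99. Late keratinocyte genes gave 9 of 12, 5 of 10 and 6 of 10 (3.83, 2.58 and 3.58), and regulators gave 5 of 9, 4 of 9 and 4 of 9 (2.96, 1.86 and 1.52). Ehf and Elf3 of the regulator list are also epithelium markers that named the clusters, so their direction is fixed by the naming. Grhl3, a Grainyhead-like factor of epidermis and umbrella cells, had epithelium-like rates of 95.02, 12.5 and 1.95 CPM, and Elf3, an epithelial ETS factor, had rates of 379, 24.4 and 36.7 CPM.

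Set 1 epithelium-like cells were mostly in cluster 5 (102 cells) and cluster 11 (30 cells), between which the members differed in rate. Cluster 11 was higher in Upk1a (1690.9 against 582 CPM), Upk3b (205 against 55.7), Ivl (585 against 61.1) and Sprr1a (7347.5 against 3932.4). Cluster 5 was higher in Upk3bl (540 against 83.3), Lor (171 against 4.80), Asprv1 (808 against 0.600, from 4050 UMIs against 1) and Dapl1 (92.4 against 11.99). On the log2 scale, cluster 5 over cluster 11, Ivl was at -3.26 (-3.45 to -3.07), Upk3bl at 2.70 (2.45 to 2.95), Lor at 5.16 (4.17 to 6.37) and Asprv1 at 10.40 (7.92 to 15.70). Of 8 members, 4 were 4-fold or more higher in cluster 5 and 1 was 4-fold or more lower, against 2.87% and 2.57% of 6612 rows. The members and the pathway lists took no part in the clustering. Part of this order rests on clustering the sets together. When set 1 was clustered alone, all 30 cells of cluster 11 joined 47 of cluster 5 and 11 of cluster 4 in a cluster of 94 cells, and the only other epithelium cluster held 54 cells, all of cluster 5. Between that pair Ivl (50.7 CPM in the 54 cells against 272 in the 94), Upk3bl (774 against 138) and Asprv1 (1142.3 against 151) kept their order and Lor was close (145 against 134). Upk1a (916 against 706), Upk3b (91.4 against 82.0), Sprr1a (4871.5 against 4309.3) and Dapl1 (34.4 against 117) took the opposite order, so no division between groups of set 1 cells is read from these 4 genes.

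Some other genes of the lists also differed between the clusters. Their values are given for the joint clustering only, and whether they hold when set 1 is clustered alone was not tested. Krtdap, a keratinocyte differentiation gene, stood at 133 CPM in cluster 5 and 4.197 in cluster 11, and Lgals7, the galectin of stratified epithelia, at 156 and 7.79. Ecm1 stood at 169 and 25.8, and Lypd3 at 311 and 65.4. Sprr2a3 stood at 8.58 and 105 and Pparg, a regulator of urothelial differentiation, at 29.6 and 171, both higher in cluster 11. Grhl3 differed little (log2 ratio 0.32, 0.07 to 0.58). Of the late keratinocyte list 6 of 12 were 4-fold or more higher in cluster 5 and 1 of 12 lower. Most genes of the other lists lay between these bounds, with 1 higher and 2 lower of 13 in the epidermal differentiation complex, 1 higher of 4 cross-linking enzymes and plaque proteins, and 1 higher and 1 lower of 9 regulators. In cluster 11 cells of set 1, Cd52 had 0 UMIs, the leukocyte list held 2 UMIs in all and 6 of its 8 markers were at 0. Without cluster 11, the summed rates of set 1 were 956 CPM for the uroplakins and 3540.9 for the precursors.

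In single cells of set 1 some pairs of members often occurred together, within and across these clusters. Of the 162 cells, 104 had a mixed profile, with UMIs of more than 1 marker of a class other than epithelium. So had 43 of the 68 cells with 10 or more Upk1a UMIs and 43 of the 63 with as many of Upk3bl. The part of doublets or free RNA in the pairs was not tested. Upk3b was found in 45.8% (36.1 to 55.7) of 107 Upk1a carriers and in 3.64% (0.443 to 12.5) of the other cells. After thinning the shares were 18.6% (8.39 to 33.4) and 1.68% (0.204 to 5.94). All 26 cells with 10 or more Upk3b UMIs had 10 or more of Upk1a, which 68 cells had. This cut picks deeper cells, with a median of 64331 UMIs for Upk3b, 55329 for Upk1a and 58825 for Upk3bl against 41420 for the class. Ivl was found in 65.4% of Upk1a carriers and 21.8% of the others, and after thinning in 23.3% (11.8 to 38.6) and 3.36% (0.923 to 8.38). Of 63 cells with 10 or more Upk3bl UMIs, 49 had 10 or more of Asprv1, which likewise 63 cells had. Of the 63 cells high in Upk3bl 46 were also high in Upk1a, as were 44 of the 63 high in Asprv1. Of 22 cells high in Ivl, 6 were among the 63 of all 162 cells high in Asprv1. Pearson's r and Spearman's rho of this pair were -0.07 and 0.10, so no avoidance is read from it. Between Upk3b and Dapl1 they were -0.38 and -0.43, and 0 of 26 cells high in Upk3b were among the 20 high in Dapl1. Over the 162 cells, which share 1 library and differ in depth, Pearson's r and Spearman's rho were 0.73 and 0.70 for Upk1a with Upk3b, 0.65 and 0.69 for Upk3bl with Asprv1, 0.46 and 0.45 for Upk1a with Upk3bl, 0.34 and 0.39 for Upk1a with Asprv1, 0.012 and 0.094 for Upk3bl with Dapl1, and -0.49 and -0.45 for Upk1a with Dapl1.

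**Figure D2:**
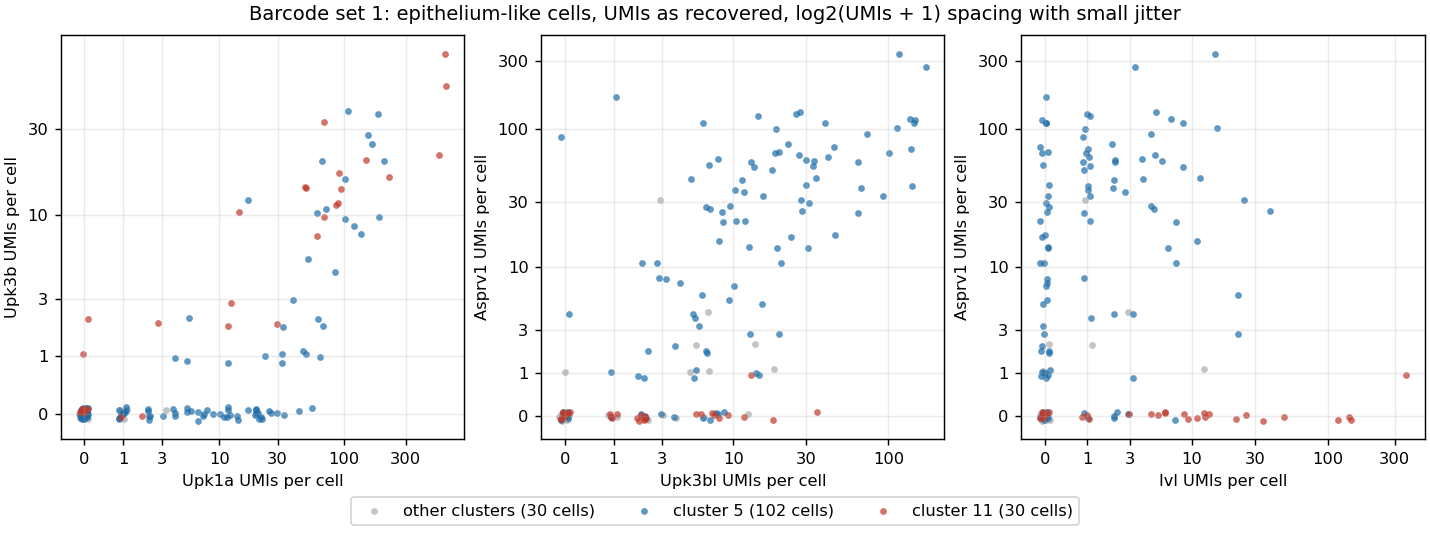
UMIs per cell of 3 pairs of genes in the 162 epithelium-like cells of barcode set 1, on log2(UMIs + 1) axes with small jitter, coloured by cluster 5 (102 cells), cluster 11 (30 cells) or other clusters (30 cells). High Upk3b occurs with high Upk1a in both clusters, Upk3bl and Asprv1 rise together in cluster 5, and cells high in Ivl in cluster 11 lie at or near 0 for Asprv1.

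Most set 1 cells expressed several members at the same time. In 22.2%, 24.1% and 21.6% of the 162 cells 5, 6 or 7 of the 9 genes had a UMI, in 3 cells none had, and no cell had all 9. Cells of sets 2 and 3 mostly had 0 (33.6% and 37.2%) or 1 (44.8% and 41.3%). Thinned to 900 UMIs, 18.52% of set 1 cells had no member, against 66.5% and 60.9% in sets 2 and 3. Of the 23 set 1 cells with no uroplakin UMI, 11 had a UMI of Myod1, the skeletal muscle regulator, as had 2 of the 139 carriers, and without the cells with a Myod1 UMI the uroplakin share of set 1 was 92.0% and the summed rates were 1261.3 CPM for the uroplakins and 4805.4 for the precursors.

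The families overlapped in single cells of all sets. A precursor UMI was found in 137 of 139 uroplakin carriers of set 1 (98.6%, 94.9 to 99.8) against 73.9% of non-carriers, in 92 of 118 in set 2 (78.0%, 69.4 to 85.1) against 60.7%, and in 263 of 313 in set 3 (84.0%, 79.5 to 87.9) against 54.0%. Carriers were deeper, with a median of 46124 against 35493, 6872.5 against 3991 and 10378 against 3395.5 UMIs. After thinning the shares were 94.3% against 66.3%, 35.3% against 31.5% and 47.2% against 35.3%, and the intervals of carriers and non-carriers overlapped in set 2 (14.2 to 61.7 and 29.2 to 33.9) and slightly in set 3 (35.3 to 59.4 and 33.6 to 37.1). In set 3 the shares within single sub-clusters of the epithelium were 51.2% against 45.3% in sub-cluster 3, 85.1% against 78.1% in sub-cluster 4 and 94.8% against 88.9% in sub-cluster 6. In set 2 they were 50% against 51.7%, 81.8% against 76.5% and 77.3% against 83.8%. All 6 of these pairs had overlapping intervals.

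**Figure D3:**
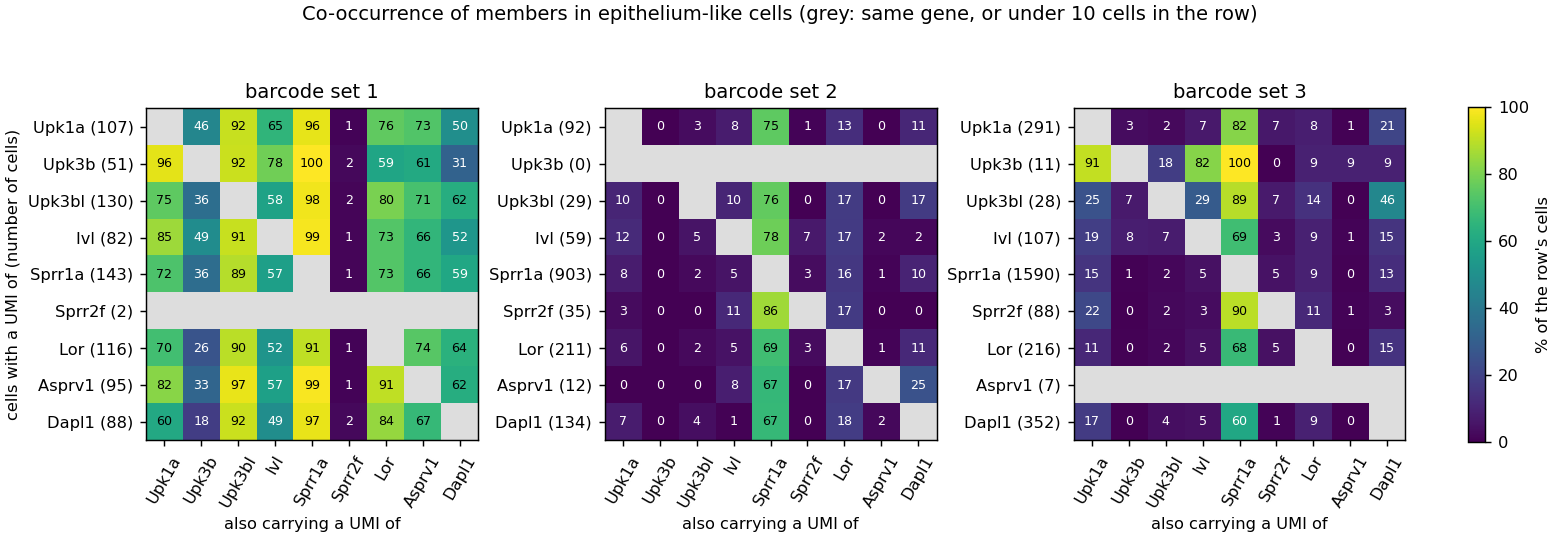
Percent of the epithelium-like cells with a UMI of the row gene (their number in brackets) that also had a UMI of the column gene, for barcode sets 1, 2 and 3, with grey for the same gene or fewer than 10 cells. Sprr1a, found in 88.3%, 56.9% and 53.5% of all these cells, gave the highest shares, and in set 1 Upk3bl was in 91.6% and Upk3b in 45.8% of Upk1a carriers. The shares shown are not thinned. After thinning, Upk3bl was in 27.9% (15.3 to 43.7) of Upk1a carriers of set 1 against 21.9% (14.8 to 30.4) of the others. Upk3b was then in 18.6% against 1.68%.

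Carriers of either family were also compared over all rows. Among rows with at least 30 UMIs, Mal, a proteolipid of apical membrane transport, was most like the uroplakins over 3 sets and 5152 rows, by the lowest log2 ratio of carriers over non-carriers. It stood at 755 against 25 CPM in set 1, 54.0 against 10.6 in set 2 and 147 against 24.9 in set 3. Wfdc2, Arl14, Nupr1 and Capn5 came next, in an order that changed without the cells of sub-cluster 10, as given below. For the precursors, over sets 2 and 3 and 5467 rows, Folr1, a folate receptor, came first (log2 ratio 3.05 and 3.04, the former with 2 UMIs in non-carriers raised to the floor of 3), then Mal (2.50 and 2.14), Wfdc15b, Cdh16 and Pdzk1ip1. Folr1 and Wfdc15b are among the leading genes of sub-cluster 7, a group of few cells of sets 2 and 3 with most of their Sprr2f UMIs. Without it Folr1 stood at 1.23 against 0.863 CPM in set 2, from 8 and 2 UMIs, and at 7.02 against 4.25 in set 3, Wfdc15b at 4.93 against 0.863 and 13.1 against 6.49, Cdh16 was left with 3 and 5 UMIs in carriers, while Mal kept log2 ratios of 2.07 (1.03 to 3.32) and 2.20 (1.82 to 2.60). In sets 1, 2 and 3, 5.17%, 0.566% and 0.591% of rows were 4-fold or more higher in uroplakin carriers and 5.92%, 0.194% and 1.16% were as much lower. Of the 8 members with enough UMIs 8, 3 and 4 were higher and 0, 1 and 0 lower, a count in which the uroplakins are high by construction. Of those outside the uroplakins, Ivl stood at 183 against 3.57 CPM in set 1, 34.98 against 7.23 in set 2 and 71.1 against 10.1 in set 3, and Sprr1a at 4646.3 against 167, 895 against 491 and 1237.1 against 747. In sets 2 and 3 the Ivl difference rested on the cells of sub-cluster 10, a group of 9 and 31 cells described below. Without them Ivl stood at 4.18 against 7.12 CPM in set 2, from 4 UMIs in carriers, and at 2.46 against 9.61 in set 3, from 9 UMIs, a log2 ratio of -0.77 (-2.69 to 0.66) and -1.96 (-3.12 to -0.997). The direction thus turned in set 3, while in set 2 the interval spanned 0 and no direction is read. Sprr1a was then at 717 against 486 and 969 against 743 CPM, and Mal at 18.8 against 10.5 and 67.3 against 24.3. The log2 ratio of Mal was then 0.84 (0.02 to 1.59) in set 2, below Arl14 (1.53), Nupr1 (1.48), Capn5 (1.34) and Wfdc2 (1.24). In set 3 it was 1.47, below Wfdc2 (2.14), Nupr1 (1.76) and Arl14 (1.54) but above Capn5 (1.22). The first place of Mal among these 5 genes thus rested on sub-cluster 10. Sprr2f was the member lower in set 2, with 1 UMI in carriers and 444 UMIs in the others. Of the regulator list 7 of 9 in set 1, 0 of 9 in set 2 and 1 of 9 in set 3 (Grhl3) were 4-fold or more higher in uroplakin carriers. The late keratinocyte list gave 10 of 12, 0 of 10 and 0 of 10, with 1 lower in set 3, the epidermal differentiation complex 4 of 13, 0 of 9 and 0 of 9, and the cross-linking enzymes and plaque proteins 3 of 5, 0 of 5 and 0 of 6. The set 1 non-carriers were only 23 cells, of which 11 held Myod1. Without the cells with a Myod1 UMI, 12 non-carriers were left, 6 of 8 members were 4-fold or more higher (2.74% of 6793 rows) and so were 4 of 9 regulators. Asprv1 and Dapl1 were then 2.39-fold and 2.05-fold higher, Ivl 23.2-fold, Sprr1a 13.7-fold, Mal 14.4-fold and Wfdc2 1.52-fold. In precursor carriers 2.94%, 0.179% and 0.371% of rows were higher and 5.08%, 0.104% and 0.234% lower, with 8, 4 and 5 members higher, the precursors by construction, and 0 lower. The set 1 values of that comparison rest on 8 cells without a precursor UMI, or 5 without the cells that held Myod1.

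The epithelium-like cells of all 3 sets were clustered again, without the members, and in sets 2 and 3 several members had their highest rates in 2 sub-clusters that held few cells of those sets. Sub-cluster 10 had 9 and 31 cells of sets 2 and 3, 0.567% and 1.04% of the class, and 0 of set 1. It carried 9 of 10 basal and 3 of 3 urothelium markers (Gata3, Pparg and Grhl3), as sub-clusters 4 and 7 also did for the latter, and took no name. In its cells all 7 mesothelium markers with a row were at 0. The leukocyte list held 13 and 2 UMIs and Ptprc was at 0.

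Upk1a stood at 538 (366 to 764) and 1184 (1048 to 1332.9) CPM there in sets 2 and 3, against 13.1 and 27.5 in the other epithelium-like cells, which is 41.2-fold and 43.0-fold. At a clustering resolution of 1.0 in place of 0.5, all cells of sub-cluster 10 lay in a sub-cluster of 16 and 62 cells, in which Upk1a stood at 375 and 773 CPM (28.9-fold and 28.0-fold), Ivl at 375 and 781, and Sprr1a at 3431.6 and 4286.7. At the resolution of 0.5, Ivl stood at 556 (380 to 784) and 1179.7 (1043.9 to 1328.3) against 6.81 and 8.13. Sprr1a stood at 4462.9 and 5712.8 against 511 and 789, and all 9 and all 31 cells carried it, with at least 9 and 6 UMIs each. Upk1a, Ivl and Sprr1a were thus high in sub-cluster 10 of both sets, which held 33.0% and 65.3% of all Ivl UMIs of the set, 19.4% and 35.6% of those of Upk1a, but 5.13% and 8.44% of those of Sprr1a and 1.66% and 4.55% of those of Dapl1.

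Upk3bl stood at 52.1, from 3 UMIs, and at 108, from 25 UMIs, against 3.01 and 1.02 elsewhere. Upk3b had 0 UMIs in set 2, and in set 3 sub-cluster 10 held 22 of the 24 UMIs of the class (log2 ratio 9.72, 7.69 to 12.85). Dapl1 stood at 52.1 and 130 CPM against 18.1 and 33.7. Lor was at 2 and 4 UMIs, Asprv1 at 0 and 1, and Sprr2f at 0 in all 40 cells of both sets. Of 8 members, 4 in set 2 and 5 in set 3 were 4-fold or more higher than in the other epithelium-like cells, and over all rows 1.62% and 2.87% were. In set 2 the floor of 3 UMIs already made 52.1 CPM in these 9 cells, so that no member but Sprr1a could be called as much lower (0.0447% of rows were), and in set 3 1 was (Sprr2f, at 0 UMIs, with 0.385% of rows).

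Most other list genes did not reach 4-fold in sub-cluster 10. In sets 2 and 3, 1 of 9 and 2 of 9 of the epidermal differentiation complex did, 0 of 5 and 0 of 6 cross-linking enzymes and plaque proteins, 3 of 10 in each set of the late keratinocyte genes, and 2 of 9 and 3 of 9 regulators. Those that did so in both sets were Sprr2a3 (625 and 1987.8 CPM against 33.4 and 38.8), Sbsn (139 and 501 against 23.6 and 34.5), Cers3 (69.5 and 108 against 8.48 and 10.6), a ceramide synthase of the epidermal lipid barrier, Ecm1 (399 and 156 against 48.8 and 35.2) and Grhl3 (69.5 and 77.8 against 12.2 and 0.960). The set 2 values rest on 4 UMIs each for Cers3 and Grhl3. In set 3 Pparg stood at 64.8 against 3.16 CPM and Elf3 at 160 against 35.1.

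Within sub-cluster 10 of set 3 the pairs of members differed in how often they shared a cell. Ivl was found in 14 of 17 Upk1a carriers (82.4%, 56.6 to 96.2) and in 21.4% of the other 14 cells, and Upk3b in 9 of 17 against 0 of 14. Upk3bl was found in 35.3% (14.2 to 61.7) of Upk1a carriers and 64.3% (35.1 to 87.2) of the others, and Dapl1 in 35.3% (14.2 to 61.7) and 78.6% (49.2 to 95.3), in both cases with intervals that overlapped. In set 2 Upk3bl was in 3 of 6 Upk1a carriers and 0 of 3 others. Over the whole epithelium of set 3, 7 of the 12 cells with 10 or more Upk1a UMIs had 10 or more of Ivl, which 9 cells had. Over all Upk1a carriers, those of sub-cluster 10 included, Ivl was in 6.87% against 3.24% of the others in set 3, and in 7.61% against 3.48% in set 2. Outside sub-cluster 10 it was in 6 of 274 Upk1a carriers of set 3 (2.19%, 0.808 to 4.71) against 3.15% (2.52 to 3.88), and in 3 of 86 of set 2 (3.49%, 0.725 to 9.86) against 3.42% (2.55 to 4.47), so that the intervals overlapped.

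**Figure D4:**
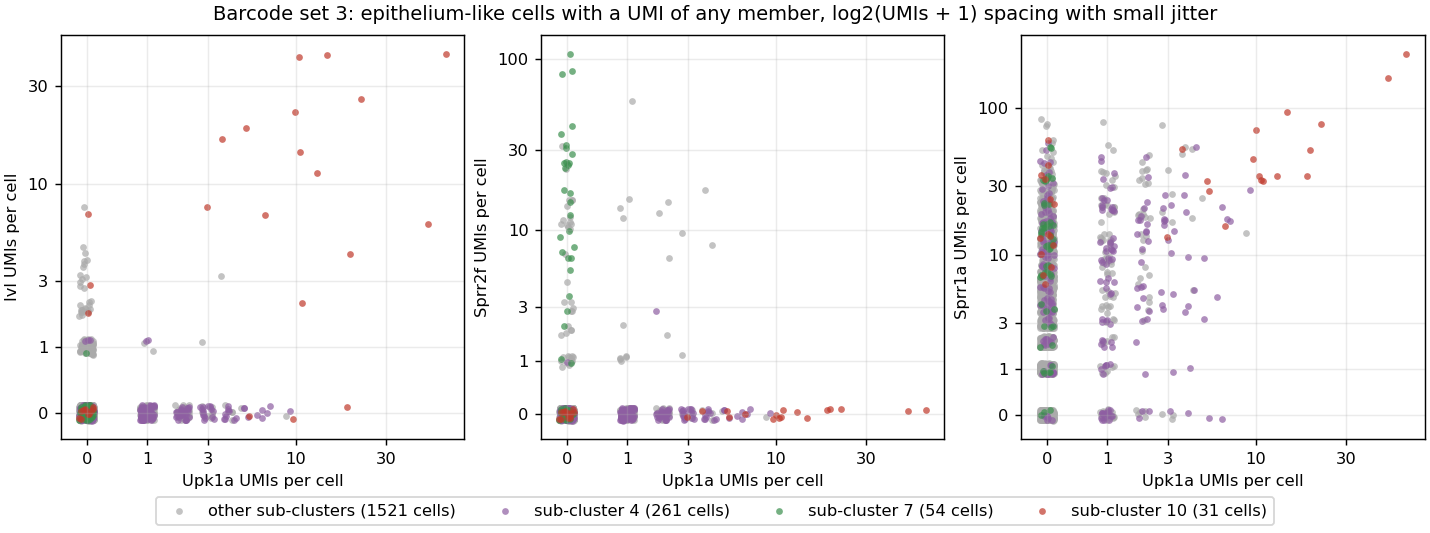
UMIs per cell of Upk1a against Ivl, Sprr2f and Sprr1a in those epithelium-like cells of barcode set 3 that had a UMI of any of the 9 genes, on log2(UMIs + 1) axes with small jitter, coloured by sub-cluster 4, 7, 10 or other. Cells of sub-cluster 10 hold the high values of Upk1a and Ivl together, and those of sub-cluster 7, where Upk1a had 0 UMIs, lie along the Sprr2f axis.

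The highest Sprr2f rates lay elsewhere. Sub-cluster 7 had 199 cells, of which 112 were of set 1 (69.1% of its class), where Sprr2f had only 3 UMIs, 26 of set 2 and 61 of set 3 (1.64% and 2.05% of the class). In sets 2 and 3 it held 83.0% and 61.6% of the Sprr2f UMIs of the 2 sets. Its rate there was 1827.9 (1646.8 to 2023.4) and 730 (676 to 786) CPM against 8.28 and 24.9 in the other epithelium-like cells, and 23 of 26 and 29 of 61 cells carried it. Upk1a had 1 and 0 UMIs in these cells, Ivl 3 and 1, and Dapl1 0 and 1. Sprr1a was at 1400.4 and 771 CPM against 516 and 857 elsewhere. Of 8 members 1 was 4-fold or more higher in each set (2.7% and 2.52% of all rows), and 3 in set 3 (Upk1a, Ivl and Dapl1) were as much lower (2.74% of all rows). In set 2 the floor made 14.7 CPM in the 26 cells and 0 were called lower (0.686% of all rows), which only Sprr1a could have been. Sub-cluster 7 had Cd52 at 3778.6 and 2557.7 CPM in sets 2 and 3 but at 0 in set 1, and Ptprc, the pan-leukocyte gene, was at 0 in sets 2 and 3. It took no name, and carried 7 of 10 basal, 8 of 12 luminal and the 3 urothelium markers.

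Of 35 and 88 Sprr2f carriers in sets 2 and 3, 1 and 20 had a uroplakin UMI. In set 3 Upk1a was found in 21.6% (13.5 to 31.7) of Sprr2f carriers against 9.43% (8.39 to 10.6) of the other cells, and in set 2 in 2.86% (0.0723 to 14.9) against 5.86%. The Sprr2f carriers were deeper than the class, with a median of 7272 and 13042.5 UMIs. After thinning, Upk1a was in 0 of 39 Sprr2f carriers of set 3 (0 to 9.03%) against 2.21% of the others, and in 0 of 22 of set 2 (0 to 15.4%) against 1.03%, so no excess is read from the unthinned share. Of the 38 set 3 cells with 10 or more Sprr2f UMIs, 21 had 10 or more of Sprr1a and 8 had a uroplakin UMI. Sprr2f also stood at 435 and 193 CPM in sub-cluster 9, a basal-like group of 6 and 47 cells. That group held only 18376 and 113809 UMIs of all genes in sets 2 and 3, so these rates rest on few Sprr2f UMIs. In set 3 Sprr2f stood at 101 CPM in the luminal-like sub-cluster 6.

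Beyond these, the members were spread at lower rates. Upk1a stood at 25.7 and 75.5 CPM in the unnamed sub-cluster 4 (165 and 289 cells) and at 51.7 and 42.6 in sub-cluster 6 (59 and 203 cells), but at 0 and 0.839 in the basal-like sub-cluster 0 (94 and 1057 cells). Dapl1 reached 94.7 CPM in the luminal-like sub-cluster 3 of set 3 and 14.3 in that of set 2. Lor was at 41.6 and 30.4 CPM in sub-cluster 1. Sprr1a was found in every sub-cluster, for example at 751 and 811 CPM in sub-cluster 0.

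**Figure D5:**
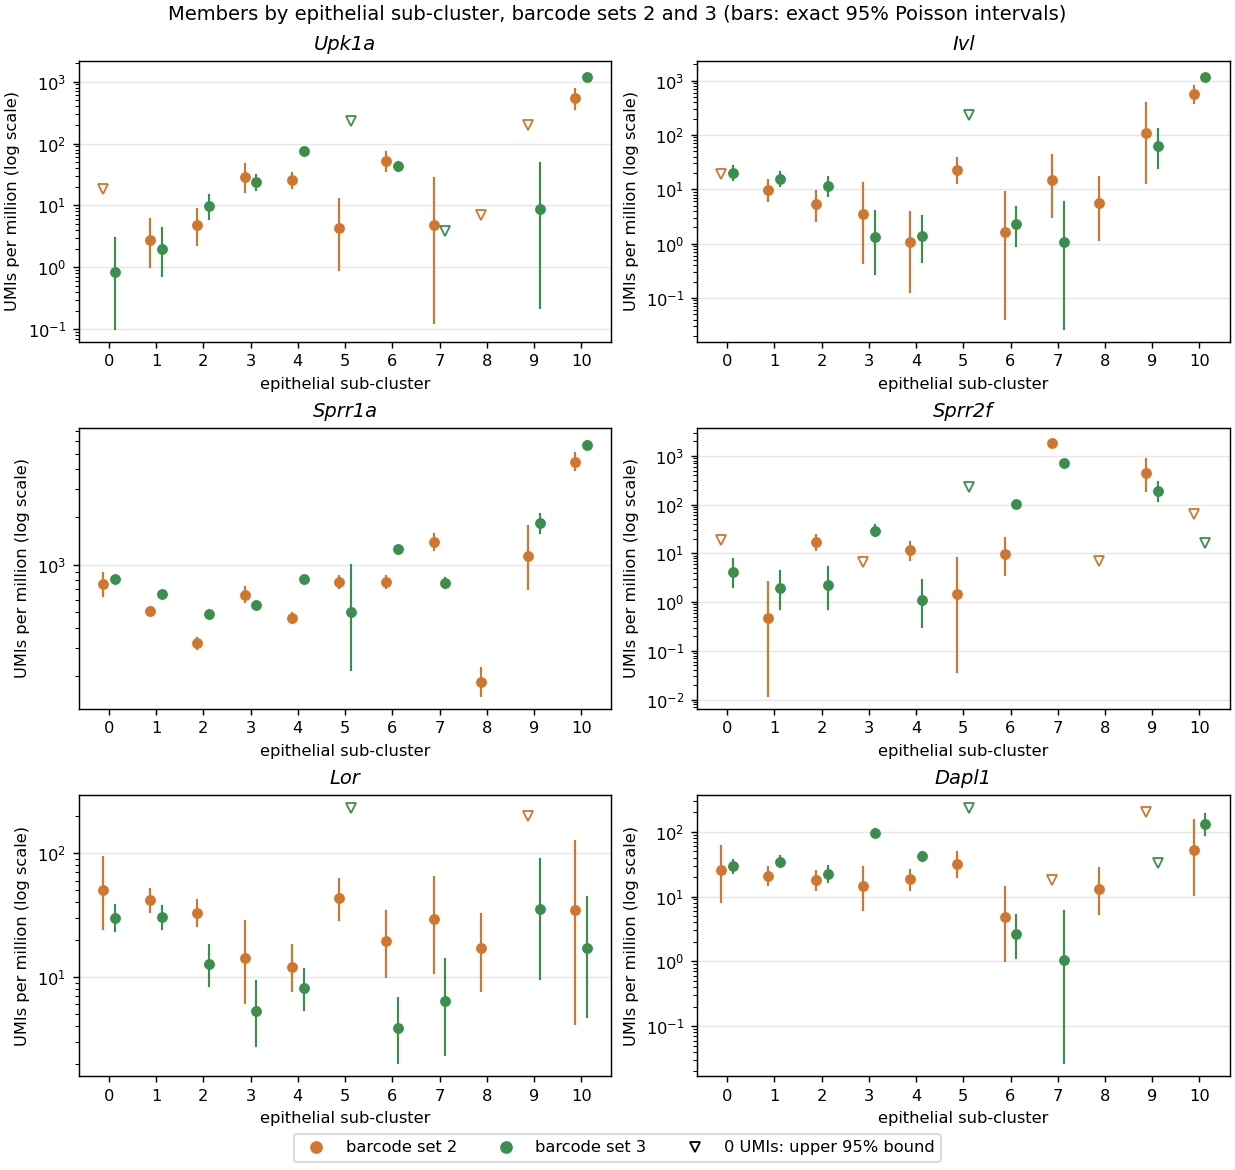
Rate of 6 members (CPM, log axis) in the epithelial sub-clusters 0 to 10 of barcode sets 2 and 3, with exact 95% Poisson intervals and open triangles for the upper bound where 0 UMIs were seen. Upk1a, Ivl and Sprr1a were highest in sub-cluster 10, and Sprr2f in sub-cluster 7.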

How the data were processed

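The 3 libraries were made with the 10x Chromium 3′ chemistry, for which labels and methods name different kit versions. Per the submitters' processing notes, reads were counted with Cell Ranger 3.1.0 on mm10, and the methods describe filters on empty droplets, multiplets and mitochondrial RNA and state no treatment of free RNA. The authors deposited 1 table of 9784 rows and 14573 cells on a natural log scale, ln(1 + 10000 × UMIs / total), with a maximum of 7.94. Whole UMI counts and cell totals were recovered from the deposited values: 11120281 values were whole within 0.05. The row that was incomplete and 2 rows of 1 name were left out. No label ties a barcode ending to a sample. The cell number that the study states for the E18.5 library is that of set 1, while those of the other libraries differ from sets 2 and 3, and a match in number is no label, so the 3 sets stayed unassigned.

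The set totals were 20511786, 15929745 and 27444044 UMIs, of which 52.7%, 50.4% and 49.4% fell in the rows. In set 3, 97 cells with fewer than 200 genes were left out. Cells were integrated and clustered with Seurat 5.3.0 in R 4.3.3 (2000 features without the members and pathway lists, 20 integration dimensions, 30 components), and epithelium-like cells again with cell cycle scores regressed out. A cluster was named when it carried at least 3 markers and 50% of a list, where a marker counted if detected in 10% of the cluster at a rate 2 times the median over clusters. Where several lists qualified, a cluster took the list with most markers, and a tie gave no name. A sub-cluster was named only if 1 list qualified. Its 10 leading genes also had to hold no more markers of other classes than epithelial ones. This naming rule was set after the clusters were seen. Doublets were scored with Scrublet in scanpy 1.11.5. Rates carry exact Poisson and shares exact Clopper-Pearson 95% intervals (Python 3.11.15, numpy 2.4.6, pandas 2.3.3, scipy 1.17.1), which treat UMIs or cells as independent. Log2 ratios set sums of 0 to 2 UMIs to a floor of 3, and where the smaller sum was 1 or 2 UMIs the ratio without the floor is given. The calls of 4-fold and the ranking of genes most like the members, Folr1 among them, kept the floor. All members are reported. Pathway genes are named by the highest rate in epithelium-like cells, those named beside them were singled out after their values were seen, and the genes most like the members are the 5 with the largest lowest log2 ratio over sets. The members, lists and markers were chosen with earlier results of these data known. Clusters 4, 5 and 11, sub-clusters 7 and 10, and the genes Cd52 and Myod1 were singled out after their values were seen. The log2 ratios, their intervals and the 4-fold call were tested on simulated Poisson counts with known changes. The other steps, such as thinning, clustering and naming, were not tested in that way. Promoter windows are from RefSeq, GRCm38.p6, the build of mm10, where all 9 members matched. A genome of an older build was not used. Alternatives changed integration, resolution, thinning, minimum genes, doublets, the carrier threshold and the floor. Clustering each set alone, the finer sub-cluster that holds sub-cluster 10, leaving out mixed-profile cells, cluster 11, cells with Myod1 or sub-clusters 7 and 10, and 1000 genes with the main classes were chosen after seeing the data.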

Additional observations from a re-analysis of the deposited data

How the results depend on the processing

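Each of 24 summary results was recomputed under the alternatives, giving 231 values, of which 146 stayed within the counting interval and 85 moved past it, and the cause was not tested. In the order set 1, 2, 3, the values as reported were 1171.5, 19.7 and 46.2 CPM for uroplakins, 4465.1, 624 and 952 for precursors, 85.8%, 7.43% and 10.5% for uroplakin carriers, 95.1%, 62.0% and 57.2% for precursor carriers, and 24.6, 17.3 and 30 percentage points for the excess of precursor carriers among uroplakin carriers. Without integration set 1 moved to 1269.1 (uroplakin carriers 91.3%) and 4823.6. Without the 5% of cells scored highest for doublets set 1 gave 1239.1 and 4663.2, set 2 649 for precursors, and set 3 49.4 and 994. With each cell classed on its own, set 1 gave 1245.3 and 4734.8, set 2 24.4 (8.86%) and 703 (64.5%), and set 3 56.8 (14.1%) and 1029.7 (59.9%). Thinned to 900 UMIs, set 1 gave 1028.8 (43.2%) and 4149.5 (78.4%), set 2 16.9 (1.08%), 708 (31.5%) and an excess of 3.80 points, and set 3 36.0 (2.45%), 982 (35.6%) and 11.9 points. Thinned to 1200, set 1 gave 973 (47.8%) and 4244.3 (78.9%), set 2 2.20% for uroplakins and 665 (36.8%), and set 3 35.8 (2.99%) and 40.1% for precursors. With 1000 or more genes per cell, set 2 gave 12.9% for uroplakins and 647 (79.9%), set 3 61.9 (25.1%), 1012.1 (80.8%) and 10.8 points, and the members 4-fold or more higher fell to 2 in each, with no share of all rows counted. With carriers needing 2 UMIs, precursor shares were 88.3%, 46.2% and 46.6%, uroplakin shares in sets 2 and 3 were 1.64% and 4.58%, and the set 3 excess was 42.1 points. With each set clustered alone set 1 gave 1283.3 and 4862.3. Without cluster 11 set 1 gave 956 and 3540.9, and sets 2 and 3 gave 560 and 924 for precursors. Without cells with a Myod1 UMI set 1 gave 1261.3 (92.0%) and 4805.4. Without mixed-profile cells (104, 757 and 656 cells) set 1 gave 1315.6 for uroplakins, set 2 25.3 and 804 (59.0%), and set 3 1001.8 for precursors.

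The highest sub-cluster rate, reported as 1846.4, 590 and 1387.1 for uroplakins and 4913.5, 5053.3 and 6909.8 for precursors, moved at a resolution of 1.0 to 2782.6 and 907.9 for uroplakins in sets 1 and 3 and to 9581.4, 3829.8 and 5087.8 for precursors. Without high doublet scores set 1 gave 1942.7 and 5135.1, without integration 1170.8 and 4463.6, and without mixed-profile cells 2000.8 for uroplakins and 4759.6, 6731.4 and 7353.6 for precursors. Sub-clusters with very few cells of a set were left out of this search, so a highest rate can lie slightly below that of the class. The run without integration sub-clustered the epithelium-like cells of the main clustering. Of 215 recomputed log2 ratios of single members 156 stayed within the interval, 56 moved and 3 turned, all of Lor: -0.24 in set 2 and -0.48 in set 3 with 1000 or more genes per cell, and -0.50 in set 3 with 1000 or more genes and the classes of all kept cells. Another 20 that were only bounds were left out. At 1000 genes, 161 of 719 and 153 of 1082 epithelium-like cells of sets 2 and 3 fell outside the named epithelium. No paired analysis was possible because the design holds 1 library per group and the barcode sets carry no replicate number. Depth limits sets 2 and 3: thinning alone took the uroplakin share of set 1 from 85.8% to 43.2%.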
